A study of Mus musculus with 22 samples.

Results

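Integrins and the proteins that bind them inside the cell were described in neurons and glia of the hippocampus contralateral to a kainate injection. The members were the 31 protein-coding genes whose symbol begins with Itga or Itgb, together with Ilk, Tln1, Tln2, Vcl, Pxn, Ptk2, Fermt1, Fermt2, Fermt3, Parva and Parvb. This gave 42 genes of the 53379 in the count table, and all 42 passed the filter on low counts. They comprised 18 alpha subunits, 8 beta subunits, 5 other genes named for integrins (Itgb1bp1, Itgb1bp2, Itgb2l, Itgb3bp and Itgbl1), 5 talins and kindlins, 3 genes of the Ilk and parvin group, and Vcl, Pxn and Ptk2.

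Integrins are receptors made of 1 alpha and 1 beta subunit, which link the extracellular matrix or a neighbouring cell to the actin cytoskeleton. Talins and kindlins bind the tail of the beta subunit and switch the receptor on, while vinculin (Vcl), paxillin (Pxn), focal adhesion kinase (Ptk2), integrin-linked kinase (Ilk) and the parvins assemble behind it. In the brain, integrins take part in synapse function, in the anchoring of vessels and myelinating cells, and in the migration and adhesion of microglia and blood cells.

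The study injected kainate, or NaCl in the sham groups, above the right hippocampus of adult male C57/BL6N mice and took the left, contralateral hippocampus (CLH) 24 h later. Kainate mice were kept only if they had convulsive seizures. Of 8 mice per treatment, the hippocampi were pooled from 4 or 2 animals into 3 samples, and nuclei were sorted by the neuronal protein NeuN. The groups were kainate neurons (KLp, NeuN+, n = 3), sham neurons (SLp, NeuN+, n = 3), kainate glia (KLn, NeuN–, n = 3) and sham glia (SLn, NeuN–, n = 2, since 1 preparation failed). The sources used here name 1 strain and no transgene for all groups, and NeuN– nuclei can include vascular cells and some neurons. A field of the deposited sample descriptions names the right hippocampus, whereas the sample titles, the series design and the methods give the left. Depth ranged from 12058875 to 45428465 counts per library. RNA input was 1 ng, amplified over 10 cycles, in 9 libraries. It was 0.05 ng, amplified over 15 cycles, in replicate 2 of the kainate glia and replicate 1 of the sham glia. The neuronal marker Rbfox3, which encodes NeuN, lay between 171 and 278 CPM (read counts scaled to the library size, here with a normalization for composition) in neurons and between 23.8 and 49.2 CPM in glia. The summed level of 6 oligodendrocyte markers was 209 to 475 CPM in neurons and 4852 to 38943 CPM in glia.

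Itga5, the alpha subunit of the fibronectin receptor, had the largest log2 fold change with kainate of the 42 members in glia. It is located in mm10 at chr15:103344286-103366763 on the minus strand, and none of its exon bases are shared with another gene. The 250 bases before the RefSeq start are shown for Itga5 and Itgav, which were higher with kainate in neurons once replicate numbers were blocked, and for Itga4 and Itga8, which were lower. In GRCm38.p6 the windows are chr15:103366792-103367041 on the minus strand for Itga5, chr2:83724147-83724396 on the plus strand for Itgav, chr2:79255176-79255425 on the plus strand for Itga4 and chr2:12301945-12302194 on the minus strand for Itga8. Capitals mark the GC box GGGCGG on either strand, the core of the site bound by Sp1.
Itga5: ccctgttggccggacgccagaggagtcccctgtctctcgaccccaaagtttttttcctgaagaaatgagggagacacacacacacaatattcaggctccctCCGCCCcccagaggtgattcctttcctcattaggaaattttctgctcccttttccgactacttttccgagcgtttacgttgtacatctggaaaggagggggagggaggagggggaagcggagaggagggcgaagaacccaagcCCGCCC
Itgav: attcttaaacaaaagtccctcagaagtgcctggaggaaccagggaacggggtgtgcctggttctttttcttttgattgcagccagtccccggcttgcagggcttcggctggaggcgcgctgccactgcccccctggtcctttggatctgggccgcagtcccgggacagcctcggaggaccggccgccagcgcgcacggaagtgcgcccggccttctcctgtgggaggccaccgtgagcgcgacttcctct
Itga4: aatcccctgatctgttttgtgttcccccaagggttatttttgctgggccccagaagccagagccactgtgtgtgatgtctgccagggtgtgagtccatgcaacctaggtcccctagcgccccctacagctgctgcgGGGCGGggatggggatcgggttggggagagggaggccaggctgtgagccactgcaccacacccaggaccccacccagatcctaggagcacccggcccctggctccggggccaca
Itga8: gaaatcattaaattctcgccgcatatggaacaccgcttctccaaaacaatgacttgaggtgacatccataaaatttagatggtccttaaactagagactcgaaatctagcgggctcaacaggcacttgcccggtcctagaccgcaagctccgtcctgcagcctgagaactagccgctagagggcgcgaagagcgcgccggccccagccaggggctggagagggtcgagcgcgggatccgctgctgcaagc
The window of Itga5 had a GC content of 55.6% and held 2 GC boxes, the nearer one lying 6 to 1 bases before the start. The window of Itga4 held 1 GC box, and those of Itgav and Itga8 held none. GC boxes were found in 32.7% of all 32851 windows of this length, and in 12 of the 29 members with a window. The AP-1 site TGANTCA, bound by Fos and Jun, was present in 6.75% of all windows and, among the members, only in that of Itgax. The cAMP response element TGACGTCA was present in 1.55% of all windows and in none of the members'. Both strands were searched, and a match is a description of letters only.

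The first question was where these genes were expressed. Measured per kb of exon, so that genes of different length can be compared, the highest mean levels over both treatments in neurons were those of Pxn (28.7 CPM per kb), Ptk2 (24.95), Itga7 (20.99) and Itga8 (20.4). In glia they were those of Itgb5 (39.3 CPM per kb), Itgb1 (38.5), Itgav (27.4) and Ptk2 (26.8). Itgb1 encodes the beta subunit that most alpha subunits of the list pair with, and Itgb5 encodes a partner of the alpha subunit of Itgav in vitronectin receptors. Over the libraries of a fraction, the ranges of neighbours in this order overlapped, and the order of the means differed between treatments. In glia Itgb1 was first with kainate (40.3 CPM per kb, with Itgb5 at 30.1) and Itgb5 with sham (53.1, with Itgb1 at 35.7), and in neurons Itga8 was at 27.1 CPM per kb with sham and at 13.8 with kainate, where it lay below Itgb1 (15.7). Ilk was close to unmeasured, with 0 to 17 counts in a library, and 89.7% of its exon bases are shared with Rrp8 and Taf10.

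**Figure D1:**
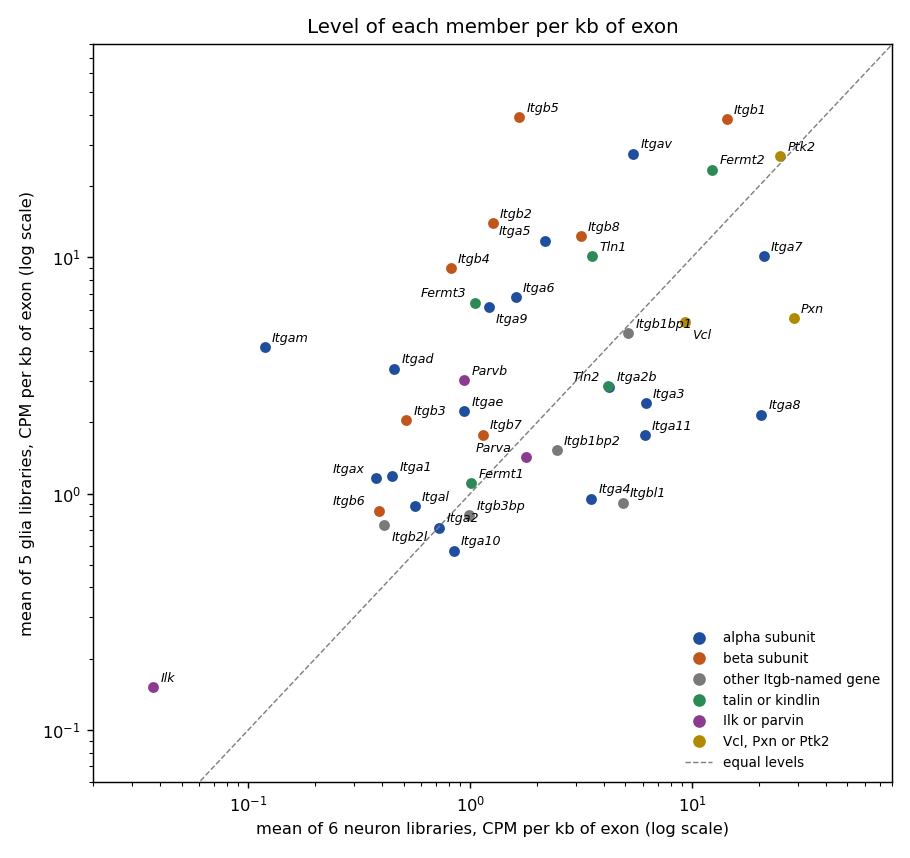
Mean level of each of the 42 members in the 6 neuron libraries (horizontal axis) against the 5 glia libraries (vertical axis), in CPM per kb of exon on log scales, with the dashed line marking equal levels. All 8 beta subunits lie above the line, towards glia, while Pxn, Itga7, Itga8, Itga4 and Itgbl1 lie towards neurons.

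Neurons and glia differed in most members. Over both treatments, 11 members were higher in neurons and 21 were higher in glia at a false discovery rate (FDR) below 0.25, the threshold of the study, in edgeR's quasi-likelihood test. Of all 40714 genes tested, 16.8% were higher and 20.4% were lower in neurons. The median log2 fold change was -0.89 over the members and -0.47 over all genes. The sorted nuclei are bulk samples, so that fewer nuclei of a type and less RNA per nucleus cannot be told apart. Of the 8 beta subunits, 7 were lower in neurons and 0 were higher, and the eighth, Itgb7, was not called. Both fractions of a sample came from 1 pool of mice, and with the pool as a block, which leaves out sham neurons replicate 2, 12 members were higher and 23 were lower in neurons, against 24.9% and 34.8% of all genes. The calls gained were Itga10 (higher), Itgb7 and Itgb2l (lower), so that all 8 beta subunits were then called lower. The 18 alpha subunits divided, with 6 higher and 9 lower in neurons. Of the talins and kindlins 1 was higher and 3 were lower, of Ilk and the parvins 0 were higher and 2 were lower, and Pxn and Vcl were higher in neurons. With size factors of DESeq2 in place of the TMM scaling, all 8 beta subunits still had lower values in neurons.

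Integrins of leukocytes and microglia were among the largest differences. Itgam, the alpha chain of complement receptor 3, had the largest of the 42 members and ranged from 0.13 to 1.08 CPM in the 6 neuron libraries with a median of 0.57, and from 9.17 to 32.1 CPM in the 5 glia libraries with a median of 20.9. Its log2 fold change was -5.11 (SE 0.49, FDR 3.30e-05), though 68.7% of its exon bases are shared with Gm49368. Itgb2, the beta subunit that Itgam pairs with, ranged from 1.28 to 7.16 CPM in neurons and from 19.9 to 67.1 CPM in glia (log2 fold change -3.45, SE 0.43, FDR 6.69e-05). Itgad, another alpha subunit of this family, ranged from 0.36 to 3.02 CPM in neurons and from 7.70 to 21.5 CPM in glia (log2 fold change -2.86, SE 0.50, FDR 0.000926). Fermt3, the kindlin of blood cells and microglia, ranged from 4.77 to 7.67 CPM in neurons and from 27.3 to 43.2 CPM in glia (log2 fold change -2.58, SE 0.25, FDR 3.30e-05). None of these 4 genes overlapped between the fractions. Of the 42 members, the neuron libraries lay all above the glia libraries for 7 and all below them for 13, against 8.92% and 6.31% of all genes. Of the 8 leukocyte integrins listed (Itgal, Itgam, Itgax, Itgad, Itgae, Itga4, Itgb2 and Itgb7), 5 were lower in neurons and 1, Itga4, was higher.

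Subunits of matrix receptors made up the rest of the 8 largest differences. Itgb5 ranged from 3.63 to 8.20 CPM in neurons and from 56.8 to 305 CPM in glia, a log2 fold change of -4.58 (SE 0.44, FDR 3.30e-05). Itgb4, which pairs with the alpha subunit of Itga6 in a laminin receptor, ranged from 1.92 to 8.67 CPM in neurons and from 25.3 to 106 CPM in glia (log2 fold change -3.48, SE 0.47, FDR 0.000129). Itgav ranged from 27.4 to 100.2 CPM in neurons and from 111 to 489 CPM in glia (log2 fold change -2.43, SE 0.38, FDR 0.000346). In the opposite direction, Itga8, the alpha subunit of a nephronectin receptor, ranged from 50.9 to 229 CPM in neurons with a median of 161 and from 9.97 to 24.0 CPM in glia with a median of 15.8 (log2 fold change 3.14, SE 0.37, FDR 5.40e-05). These 4 genes were also without overlap. Pxn was 5.17-fold higher in neurons (log2 fold change 2.37, SE 0.27, FDR 4.34e-05), whereas Ptk2 was not called (log2 fold change -0.12, SE 0.30, FDR 0.792). Itga5 was lower in neurons, with a log2 fold change of -1.58 (SE 0.31, FDR 0.00212) over both treatments. Its means were 5.83 ± 1.08 CPM (SD, n = 3) in neurons and 9.01 ± 2.89 CPM (SD, n = 2) in glia with sham, and 15.7 ± 8.94 CPM (SD, n = 3) and 90.7 ± 20.0 CPM (SD, n = 3) with kainate, so that the fractions lay further apart with kainate.

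**Figure D2:**
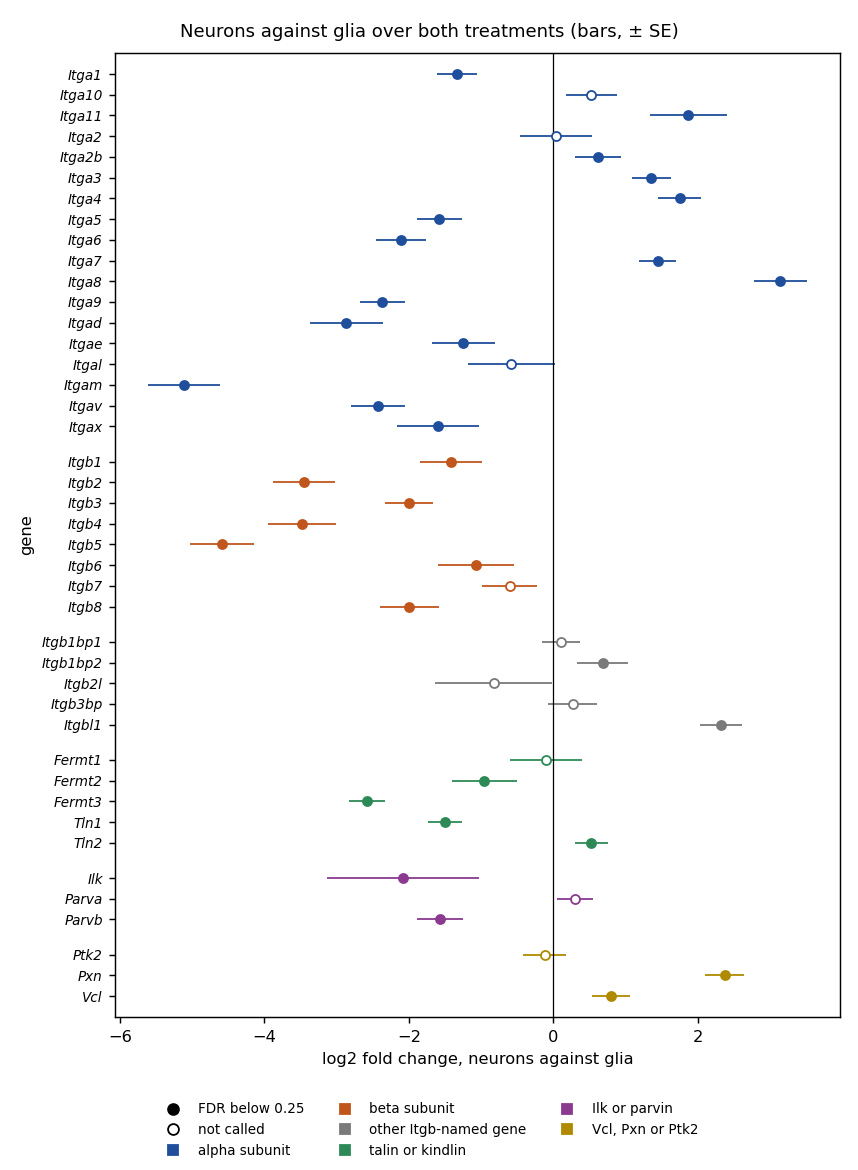
Log2 fold change of neurons against glia over both treatments for the 42 members, with bars of 1 SE, coloured by role and filled where FDR was below 0.25. The points run from -5.11 for Itgam to 3.14 for Itga8, and the 8 beta subunits all lie left of 0.

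Kainate was then compared with sham within glia. The study, which fitted each fraction on its own, listed Itga5 and Itga7 as higher in glia at an FDR below 0.25. In the fit used here Itga5 was the 1 member called, against 0.0933% of all genes called higher and 0.00737% called lower. Its level was 92.9, 109.5 and 69.7 CPM in the kainate libraries and 6.97 and 11.1 CPM in the sham libraries, which did not overlap. The log2 fold change was 3.33 (SE 0.53), a 10.1-fold difference with an FDR of 0.0763. Only 8 of the 40714 genes had a smaller p. Compared by replicate number, kainate was 13.3-fold above sham in replicate 1 and 6.30-fold in replicate 3. FDR values for Itga5 were 0.260 without kainate glia replicate 2, 0.406 without sham glia replicate 1 and 1.00 without both of these low-input libraries, where the log2 fold change was 2.90. Each fit that leaves out 1 of the 2 sham glia libraries has 1 library in that group, which is assumed to vary like those of the other groups. In a separate fit of the glia libraries, where 0 of 39857 genes were called, the FDR of Itga5 was 0.707 and its log2 fold change 3.35.

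Markers of several cell types were read beside this result. The summed levels in glia with kainate and sham were 35.5 to 58.1 and 31.3 to 58.7 CPM for 7 endothelial markers, 31.4 to 62.1 and 41.1 to 69.8 CPM for 5 pericyte markers, 78.4 to 96.5 and 69.0 to 96.0 CPM for 7 markers of blood leukocytes, 1064 to 6136 and 1424 to 12579.6 CPM for 4 markers of meningeal fibroblasts, and 651 to 1877 and 656 to 3561 CPM for 6 microglial markers. The ranges overlapped for each of these lists, of which only S100a8 and S100a9 of the leukocyte list were at 0 in any glia library. Compared by replicate number, the sums of the microglial (1877 against 3561 and 651 against 656 CPM), pericyte (62.1 against 69.8 and 31.4 against 41.1 CPM) and fibroblast lists (6136 against 12579.6 and 1064 against 1424 CPM) were lower with kainate both times. The sum of the leukocyte list was higher both times (96.5 against 96.0 and 78.4 against 69.0 CPM). That of the endothelial list was higher in replicate 1 (35.5 against 31.3 CPM) and lower in replicate 3 (58.1 against 58.7 CPM). All 6 microglial markers had negative log2 fold changes in glia (median -0.74), and the fit with the replicate number as a block called 2 lower. The 6 astrocyte markers summed to 625 to 3126 CPM with kainate and 1047 to 3999 CPM with sham, with a median log2 fold change of -0.47. By replicate number, their sum was lower with kainate both times (3126 against 3999 and 625 against 1047 CPM). With the block, Gfap was higher (857, 608 and 278 CPM with kainate and 232 and 87.9 CPM with sham), Slc1a3, Gja1 and Slc1a2 were lower, and Aqp4 and Aldh1l1 were not called. The part of these cells in the level of Itga5 was not tested.

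Samples with 1 replicate number deviated together from their group means, so the comparison was repeated with the number as a block within each fraction. This fit has no partner for kainate glia replicate 2 and in effect compares 2 libraries with 2. Of the replicate 1 pair in glia, only the sham library had the low RNA input. The fit leaves 3 residual degrees of freedom over both fractions. In glia it called 4 members higher and 4 lower, where 2.93% and 2.86% of all genes were called. Its FDR values were the lowest of the 21 alternatives for each member named here in a kainate comparison, and in other alternatives the FDR of each reached 1.00. Itga5 kept its call, with a log2 fold change of 3.18 (SE 0.30, FDR 4.46e-11).

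The other 3 members higher in glia with the block were alpha subunits. Itga7, the alpha subunit of a laminin receptor best known from muscle, was at 129, 129 and 82.0 CPM with kainate and 32.4 and 35.9 CPM with sham, without overlap. Its log2 fold change was 1.73 (SE 0.39, FDR 0.438) without the block and 1.59 (SE 0.23, FDR 3.37e-06) with it. All 5 glia libraries lay below the neuron libraries for this gene, whose lowest value was 137 CPM. Itga2b, the alpha subunit of the fibrinogen receptor of platelets, was at 20.9, 17.7 and 23.9 CPM with kainate and 3.26 and 11.6 CPM with sham, again without overlap (log2 fold change with the block 1.79, SE 0.32, FDR 0.000150, and 1.49, SE 0.50, without it). Itga11, the alpha subunit of a collagen receptor, was at 1.82, 15.2 and 18.9 CPM with kainate and 1.34 and 7.93 CPM with sham, so that the groups overlapped and the 2 libraries of replicate 1 were lowest (log2 fold change with the block 0.97, SE 0.32, FDR 0.104). Without sham glia replicate 3, the fit without the block called 8 members higher and 2 lower, against 5.53% and 1.06% of the 42640 genes tested there, among them Itga7 (FDR 0.233), Itga2b (log2 fold change 2.66, FDR 0.193) and Itga11 (log2 fold change 3.15, FDR 0.236). Without sham glia replicate 1, the log2 fold change was 0.87 for Itga2b and 0.62 for Itga11, as it was for Itga11 without kainate glia replicate 3.

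The 4 members lower in glia with the block were Itgb8, Itgb5, Itgb4 and Tln2. Itgb8 encodes the partner of Itgav that frees TGF-beta from its latent form. It was at 175, 86.6 and 40.8 CPM with kainate and 301 and 77.7 CPM with sham (log2 fold change with the block -0.86, SE 0.24, FDR 0.0333). Itgb5 was at 171, 93.0 and 56.8 CPM with kainate and 305 and 71.9 CPM with sham (log2 fold change with the block -0.59, SE 0.23, FDR 0.238), and Itgb4 at 81.0, 51.4 and 25.3 CPM with kainate and 106 and 52.0 CPM with sham (-0.71, SE 0.26, FDR 0.167). For these 3 beta subunits the groups overlapped. Tln2, which encodes a talin found in muscle and brain, was at 36.3, 49.3 and 46.7 CPM with kainate and 69.4 and 59.4 CPM with sham, without overlap (log2 fold change with the block -0.64, SE 0.23, FDR 0.186). Without sham glia replicate 1, and without both low-input libraries, the log2 fold changes of the beta subunits in the fit without the block turned positive, to 0.41 and 0.50 for Itgb8, 0.60 and 0.69 for Itgb5, and 0.044 and 0.057 for Itgb4. The 6 oligodendrocyte markers were also highest in sham glia replicate 1, with sums of 27163, 11653 and 4852 CPM with kainate and 38943 and 8752 CPM with sham, as did the 4 markers of their precursors, with sums of 1069, 525 and 237 CPM with kainate and 2238 and 703 CPM with sham. Their part in these values was not tested.

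**Figure D3:**
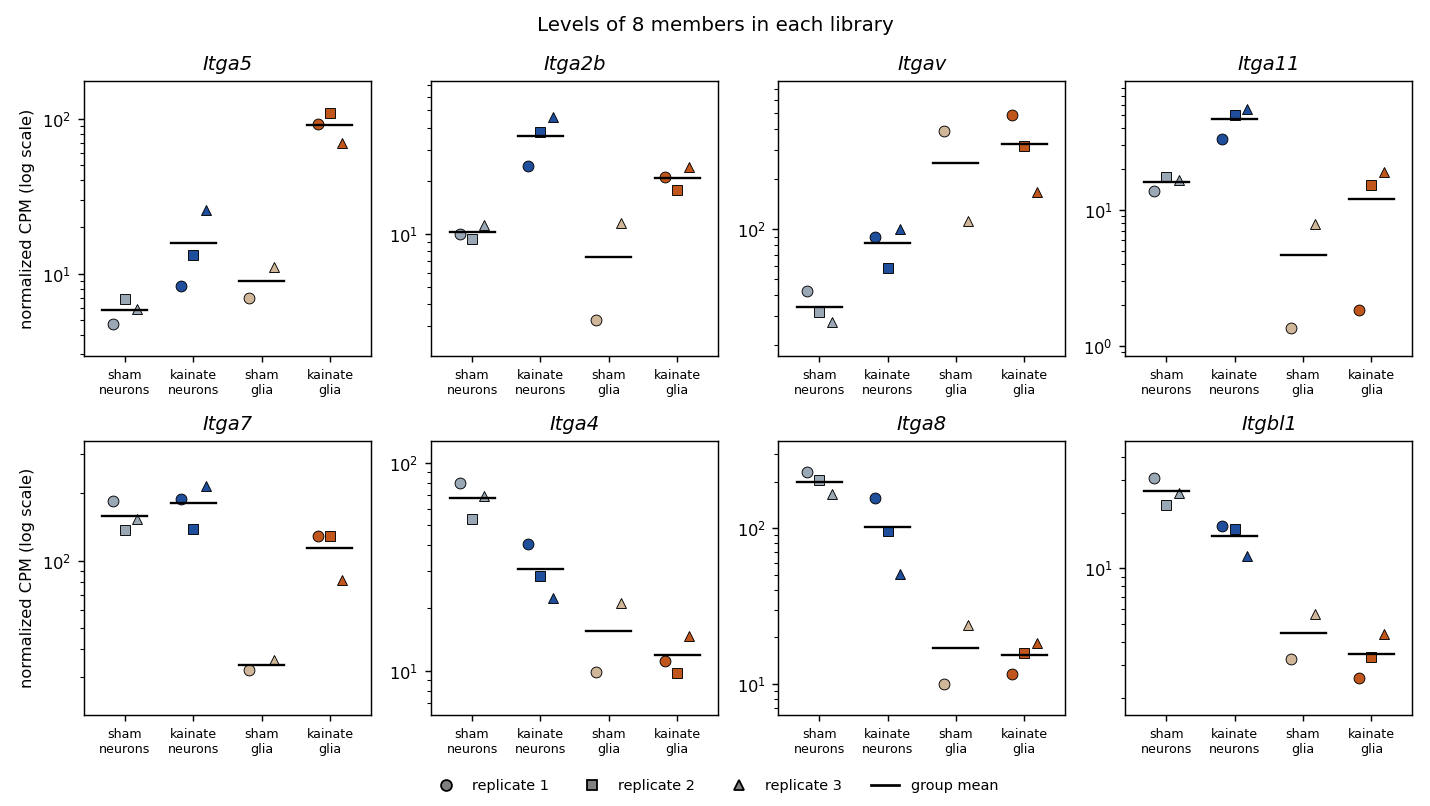
Normalized CPM on a log scale for 8 members in each library, grouped as sham and kainate neurons and sham and kainate glia, with marker shapes for the replicate number and a bar for the group mean. Itga5 in kainate glia sits between 69.7 and 109.5 CPM, above every other library, while Itga4, Itga8 and Itgbl1 are lower in kainate than in sham neurons.

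In neurons no member was called, where 0.157% of all genes were called higher and 0.00737% lower. At an unadjusted p below 0.05, 4 members were higher and 3 were lower, against 1.46% and 0.626% of all genes. DESeq2's Wald test called 2 members higher and 1 lower, against 0.717% and 0.167% of all genes. The 3 kainate and 3 sham libraries did not overlap for 5 members that were above sham, against 4.26% of all genes, and for 3 that were below, against 3.6%. In glia the corresponding counts were 4 members above, against 4.7% of all genes, and 2 below, against 3.52%. With the replicate number as a block, where 3.19% of all genes were called higher and 1.9% lower, 5 members were higher and 3 were lower in neurons.

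Of the 4 alpha subunits of receptors that recognise the RGD sequence in matrix proteins, 3 were higher with the block in neurons (Itga2b, Itga5 and Itgav) and 1 was lower (Itga8). Itga2b was at 24.2, 37.6 and 45.9 CPM with kainate and 10.0, 9.30 and 11.2 CPM with sham, a log2 fold change of 1.82 without the block (SE 0.43, FDR 0.340) and 1.78 with it (SE 0.25, FDR 9.24e-07). It was called without the block when sham glia replicate 1 (FDR 0.0621) or replicate 3 (FDR 0.0627) was left out, and in a separate fit of the neuron libraries (FDR 0.0552). The 4 platelet markers Pf4, Ppbp, Gp9 and Gp1bb summed to 14.4 to 14.9 CPM with kainate and 6.24 to 15.8 CPM with sham in neurons, and to 3.97 to 8.59 and 5.60 to 11.8 CPM in glia. Most of that sum was Gp1bb, and the other 3 did not exceed 0.77 CPM in any neuron library, with Ppbp and Gp9 at 0 in kainate neurons replicate 1.

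Itga5 was at 8.32, 13.1 and 25.6 CPM in kainate neurons and 4.70, 6.86 and 5.93 CPM in sham neurons. All kainate libraries were above all sham libraries, by 1.77-fold, 1.91-fold and 4.32-fold for the 3 numbers, and the log2 fold change was 1.42 without the block (SE 0.42, FDR 0.771) and 1.31 with it (SE 0.24, FDR 0.000177). Without kainate neurons replicate 3 it was 0.88. Itgav was at 89.0, 58.5 and 100.2 CPM with kainate and 42.4, 31.6 and 27.4 CPM with sham, also without overlap (log2 fold change with the block 1.27, SE 0.19, FDR 3.75e-06, and 1.29, SE 0.50, without it). In glia its ratio of kainate to sham was 1.26 in replicate 1 and 1.505 in replicate 3, and it was not called there. Itga11 was at 33.6, 50.7 and 56.0 CPM with kainate and 13.9, 17.6 and 16.7 CPM with sham (log2 fold change with the block 1.52, SE 0.23, FDR 3.04e-06). The fifth member, Itgb2, overlapped between the groups (log2 fold change with the block 0.77, SE 0.25, FDR 0.0997). Its value without the block, 0.78, dropped to 0.41 when replicate 3 of the kainate neurons was left out and to 0.45 when replicate 1 of the sham neurons was.

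The 3 members lower in neurons with the block were Itga4, Itga8 and Itgbl1. Itga4, the alpha subunit of the receptor for VCAM-1, was at 40.8, 28.7 and 22.5 CPM with kainate and 79.8, 53.8 and 69.2 CPM with sham. Its log2 fold change was -1.14 without the block (SE 0.37) and -1.16 with it (SE 0.21, FDR 0.000130). Itga8 was at 157, 96.5 and 50.9 CPM with kainate and 229, 204 and 166 CPM with sham (log2 fold change with the block -1.11, SE 0.20, FDR 9.50e-05). Itgbl1, a secreted protein with repeats like those of beta subunits, was at 17.0, 16.2 and 11.7 CPM with kainate and 30.6, 22.1 and 25.6 CPM with sham (log2 fold change with the block -0.80, SE 0.24, FDR 0.0595). In each of these 3 genes, every kainate library was below every sham library.

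Markers of glia were also measured in the neuron libraries, and the summed level of those of astrocytes did not overlap between the groups. The 6 astrocyte markers summed to 252, 346 and 410 CPM in the 3 kainate libraries and 227, 170 and 234 CPM in the sham libraries, with Gfap at 39.9, 71.5 and 126 CPM against 24.0, 18.1 and 21.3 CPM. The markers did not move together: Gfap, Aqp4, Aldh1l1 and Slc1a2 were higher with kainate in all 3 pairs of libraries, and Slc1a3 and Gja1 were lower in all 3. The 6 neuronal markers summed to 3489 to 6822 CPM with kainate and 3813 to 7443 CPM with sham. The 6 microglial markers summed to 70.4, 67.4 and 73.2 CPM with kainate and 67.5, 44.6 and 51.9 CPM with sham. Their sum was thus higher with kainate in all 3 pairs, while 2 of the 6 had negative log2 fold changes. No marker of these 3 lists was at 0 in a library. The part of these cells in the neuron values of Itga5, Itgav and Itgb2, and of the ligands read below, was not tested.

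With the block, 3 members were higher in both fractions, namely Itga5, Itga2b and Itga11, and none was lower in both. Of all genes, 1.02% were called higher in both and 0.496% lower in both. Whether the kainate effect differed between neurons and glia was tested as the difference of the 2 log2 fold changes. No member passed in the fit without the block, where 0.00246% of all genes were called. At an unadjusted p below 0.05 this difference was lower in neurons for 2 members, Itga5 (-1.90, SE 0.63) and Itga7 (-1.54, SE 0.50), and higher for 0, against 0.462% and 0.447% of all genes. DESeq2's Wald test called no member. With the replicate block 4 members were called, against 1.94% of all genes. Itga5 (-1.87, SE 0.37, FDR 0.00284), Itga7 (-1.41, SE 0.30, FDR 0.00473) and Itga8 (-0.999, SE 0.32, FDR 0.182) had the lower effect in neurons, and Itgb8 (1.12, SE 0.31, FDR 0.0763) the higher one. In the fit without the block, the difference for Itgb8 turned to -0.19 without sham glia replicate 1 and to -0.29 without both low-input libraries, and that for Itga8 ranged from -1.58 without sham glia replicate 3 to -0.34 without sham glia replicate 1. Itga4 (-0.97, SE 0.34, FDR 0.293) and Itgav (0.82, SE 0.30, FDR 0.340), next by p without the block, were not called. Without the block the difference for Itga4 was -0.75, and it became -1.39 or -0.33 when replicate 3 or 1 of the sham glia was left out and -0.37 when replicate 3 of the kainate glia was, while that for Itgav turned from 0.91 to -0.29 without sham glia replicate 1. With the pool of mice as the block, which leaves out sham neurons replicate 2, 0 members were called, against 0.0221% of all genes.

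**Figure D4:**
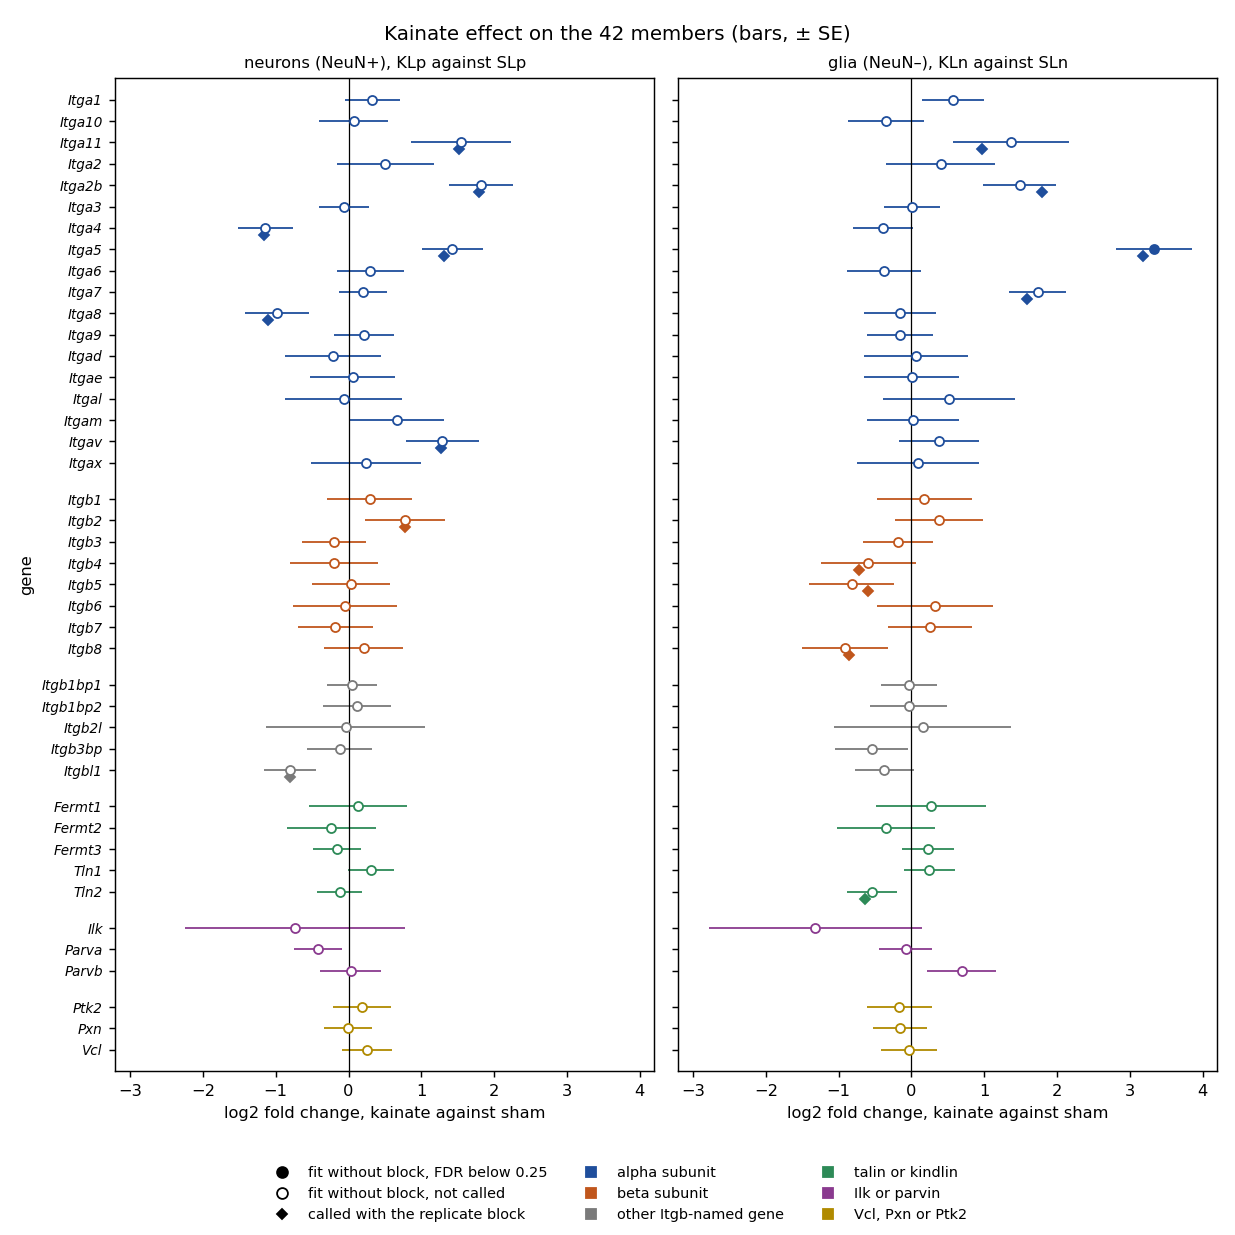
Log2 fold change of kainate against sham for the 42 members in neurons (left) and glia (right), with bars of 1 SE for the fit without a block, filled where FDR was below 0.25, and diamonds for members called with the replicate block. Itga5 in glia, at 3.33, is the 1 filled point, and the diamonds mark 8 members in each panel.

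The remaining members gave no call in either fit. They numbered 34 in each fraction, with log2 fold changes between -0.74 and 0.66 in neurons and between -1.32 and 0.69 in glia. In both fractions the lowest of these was the value of Ilk, whose counts were near 0. The proteins that act inside the cell were among them with 1 exception, Tln2 in glia. Ptk2 was at 314, 293 and 333 CPM in kainate neurons and 284, 290 and 253 CPM in sham neurons, a log2 fold change of 0.18 (SE 0.40). Pxn had a log2 fold change of -0.01 (SE 0.33) in neurons and -0.15 (SE 0.37) in glia. Itgb1, with which the products of Itga5, Itga7, Itga8 and Itga11 pair, had a log2 fold change of 0.29 (SE 0.58) in neurons and 0.18 (SE 0.65) in glia. Its libraries ranged widely, from 51.6 to 288 CPM in glia. The median log2 fold change of the members was 0.05 in neurons and 0.00 in glia, and that of all genes was -0.01 and 0.02.

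Ligands of integrins were read from a list of 43 genes of matrix proteins and counter-receptors. Tnc, the matrix protein tenascin-C, was the 1 ligand called in neurons, where 0.157% of all genes were called higher, and none was called in glia. The study's separate fits listed Tnc as higher in both fractions and the ligand Ccn1 as higher in neurons. At an unadjusted p below 0.05, 5 ligands were higher and 0 were lower in neurons, against 1.46% and 0.626% of all genes, and 4 were higher and 1 was lower in glia, against 1.35% and 0.695%. Tnc was at 26.2, 21.9 and 41.3 CPM in kainate neurons and 4.77, 6.86 and 7.70 CPM in sham neurons, and at 73.2, 104.5 and 80.9 CPM in kainate glia and 22.9 and 28.8 CPM in sham glia. Kainate was above sham in every library of both fractions, with log2 fold changes of 2.20 in neurons (SE 0.36, FDR 0.0738) and 1.74 in glia (SE 0.41, FDR 0.498). The call in neurons was lost without kainate neurons replicate 3 (FDR 0.311), sham neurons replicate 2 (FDR 0.619) or sham neurons replicate 3 (FDR 0.482).

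With the replicate block, 12 ligands were higher and 5 were lower in neurons, where the shares of all genes were 3.19% and 1.9%. In glia 13 were higher and 7 were lower, where they were 2.93% and 2.86%. Higher in both were 9, namely Tnc, Spp1, Ccn1, Ccn2, Fn1, Thbs1, Thbs4, Tnn and Col4a1, and lower in both were Tnr and Mfge8, where the shares of all genes were 1.02% and 0.496%. Other than Tnc, the ligands described were chosen after their values were seen. Over the alternatives, the block gave the lowest FDR for each of them too, and the highest was 1.00 in every case but Tnc in neurons, where it was 0.619. Fn1, the fibronectin that Itga5 binds, was at 39.9, 61.6 and 60.6 CPM in kainate glia and 14.1 and 25.7 CPM in sham glia, without overlap (log2 fold change with the block 1.36, SE 0.25, FDR 0.000195). In neurons it overlapped (log2 fold change with the block 0.65, SE 0.20, FDR 0.0644). Spp1, the RGD protein osteopontin, was at 75.5, 32.3 and 35.0 CPM in kainate glia and 16.7 and 5.36 CPM in sham glia, and its log2 fold change with the block was 2.43 (SE 0.33, FDR 5.26e-07) in glia and 2.22 (SE 0.30, FDR 3.56e-07) in neurons. Ccn1 and Ccn2, matricellular proteins listed under the older symbols Cyr61 and Ctgf, were higher by 2.23 (SE 0.27, FDR 5.40e-08) and 2.01 (SE 0.32, FDR 2.40e-05) in glia and by 2.39 (SE 0.25, FDR 2.73e-10) and 2.02 (SE 0.26, FDR 1.08e-07) in neurons on the log2 scale. Without the block, leaving out single libraries moved several of these log2 fold changes. In glia that of Spp1 went from 2.11 to 3.18 and that of Ccn1 from 2.19 to 3.51 without sham glia replicate 1, and that of Ccn2 from 1.84 to 1.14 without kainate glia replicate 1. In neurons that of Ccn2 went from 1.65 to 3.19 without sham neurons replicate 1. That of Fn1 in neurons, 0.62, became 0.36 when replicate 2 of the kainate neurons was left out, and 0.41 or 0.99 when replicate 3 or 1 of the sham neurons was. Of 44 other genes of focal adhesions, none was called in either fraction without the block, while at an unadjusted p below 0.05, 2 were higher in neurons, 3 were higher in glia and 0 were lower. The corresponding shares of all genes were 1.46% higher and 0.626% lower in neurons and 1.35% and 0.695% in glia. With the block, 5 were higher and 1 was lower in neurons, against 3.19% and 1.9% of all genes, and 5 were higher and 3 were lower in glia, against 2.93% and 2.86%. The 1 lower gene of 44 in neurons is a share near that of all genes. The medians of the log2 fold change were 0.17 in neurons and 0.12 in glia for the ligands, and 0.13 and -0.04 for the focal adhesion genes.

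**Figure D5:**
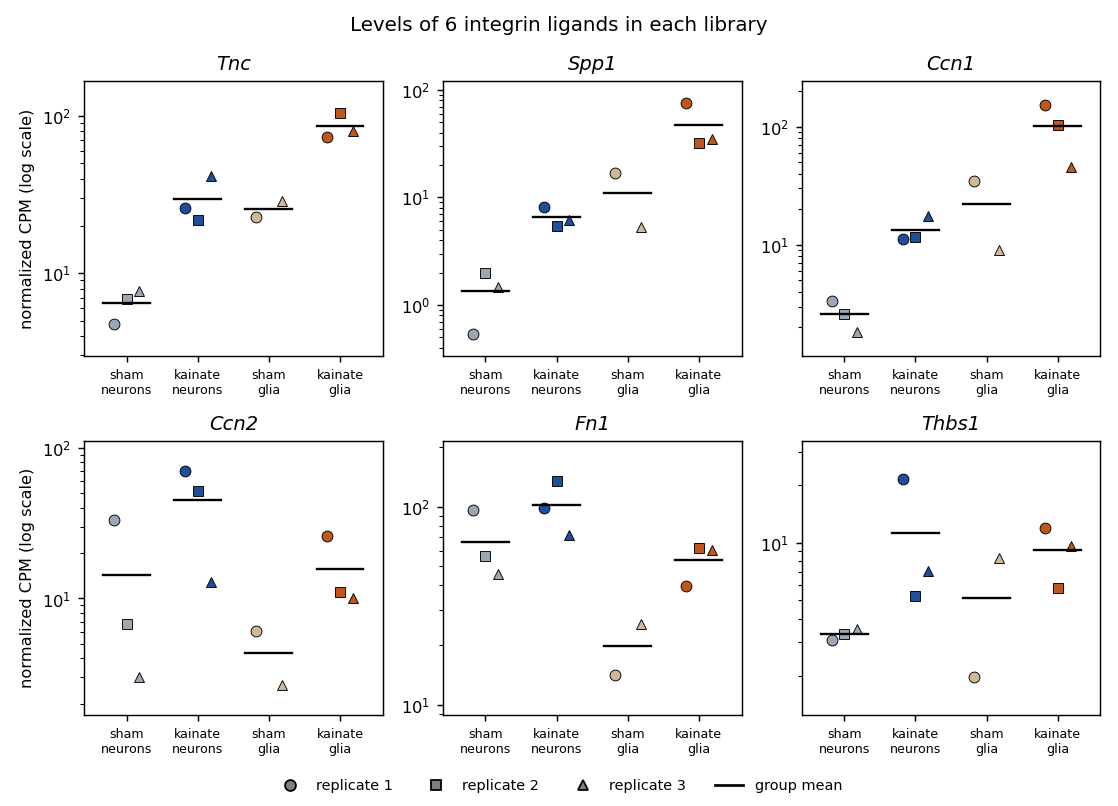
Normalized CPM on a log scale for 6 integrin ligands in each library, with marker shapes for the replicate number and a bar for the group mean. Tnc is higher with kainate in every library of its fraction, at 21.9 to 41.3 CPM in kainate neurons and 73.2 to 104.5 CPM in kainate glia.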

How the data were processed

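mRNA of sorted NeuN+ and NeuN– nuclei was amplified with SMART-Seq v4, an unstranded kit, and sequenced. The authors deposited raw counts per gene, made from reads trimmed with Trim Galore, aligned to mm10 with Rsubread and counted as unique reads over GENCODE M16 genes. Which sequencer read which library is not given in the sources used here, and methylation data of the study were not analysed here.

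Counts of genes with a symbol were filtered (filterByExpr, minimum count 10, minimum total 15) and tested with edgeR 4.0.16 in R 4.3.3 (TMM scaling, quasi-likelihood, Benjamini-Hochberg over all 40714 genes, FDR below 0.25, two-sided). 1 model held the 4 group means of 11 libraries with 7 residual degrees of freedom. With the replicate block 3 were left. SE is the log2 fold change divided by the root of F. The script was tested on simulated data. CPM used TMM library sizes. Exon lengths, overlaps and gene coordinates came from GENCODE M21 and promoter windows from RefSeq, which held 29 of the 42 members.

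Replicates were pools of mice, so p-values measure the spread between pools. Samples with the same replicate number deviated together from their group means: over 40714 genes, Pearson's r was 0.643, 0.161 and 0.491 in neurons and 0.760 and 0.787 in glia. The 2 sham glia libraries deviate from their mean as mirror images, so the 2 values in glia are not independent. Between the fractions of 1 pool, r was 0.571, 0.240 and 0.506 with kainate and 0.668 and 0.547 with sham. Unlike numbers were not compared. The numbers were taken to pair the samples, and the replicate block, set within each fraction, is given beside kainate results whose call it changed. It gives no value for neurons against glia, where the pool was the block. Alternatives were another scaling, filter, threshold and quasi-likelihood method, DESeq2 1.42.0, the low RNA input as a covariate, blocks, separate fits per fraction and leaving out libraries.

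Named were Itga5, members called in a kainate comparison with or without the block, the 5 members with the smallest p in each of these, the 8 largest differences called between fractions, the 4 highest mean CPM per fraction, and ligands or focal adhesion genes called. The members, the lists and these rules were chosen with earlier results of these data known.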

Additional observations from a re-analysis of the deposited data

How the results depend on the processing

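The count of members called with kainate in neurons, 0, became 1 with the newer quasi-likelihood method and without both low-input libraries, 3 with DESeq2's Wald test, 4 in a separate fit of the neurons and 8 with the replicate block, and ranged from 0 to 1 when single libraries were left out (1 without sham glia replicate 1 or 3). In glia, the count of 1 became 2 with a filter of 1 CPM in 3 libraries and with DESeq2's Wald test, 8 with the replicate block, and 0 at FDR below 0.05, without both low-input libraries and in a separate fit of the glia. It ranged from 0 (without kainate glia replicate 2 or sham glia replicate 1) to 10 (without sham glia replicate 3) when single libraries were left out. For the difference between the fractions, 0 became 4 with the replicate block, and stayed at 0 without any 1 library. Between neurons and glia, 32 calls became 21 in the sham libraries alone. Over all 40714 genes, 6836 calls higher in neurons became 3708 there and 8323 calls lower became 3108. Over all genes, the kainate calls higher and lower were 1299 and 773 in neurons and 1194 and 1163 in glia with the replicate block, and 292 and 68 and 191 and 63 with DESeq2, against 64 and 3 and 38 and 3 without a block. In neurons they were 127 and 13 with the newer quasi-likelihood method, and 324 and 66 of 30259 genes in the separate fit. In glia they were 60 and 7 of 29254 genes with the filter of 1 CPM, 1 and 0 at FDR below 0.05, and 0 and 0 of 39857 genes in the separate fit. Without sham glia replicate 3 they were 2359 and 453 in glia. Without both low-input libraries the log2 fold change in glia turned to 0.057 for Itgb4, 0.69 for Itgb5 and 0.50 for Itgb8, and the difference between fractions to -0.29 for Itgb8 and -0.30 for Itgav. When single libraries were left out, these 5 values ranged from -1.15 to 0.044, from -1.52 to 0.60, from -1.70 to 0.41, from -0.19 to 1.88 and from -0.29 to 1.56. The causes were not tested. Of the values of single genes under all alternatives, 923 kept direction and call, 74 gained a call, 9 lost one and 10 reversed.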
